A study of Mus musculus with 8 samples.

Results

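The cytosolic ribosomal protein genes encode the proteins of the ribosome that translates nuclear mRNAs. They were chosen by gene symbol: protein-coding mouse genes named Rpl or Rps and a digit, with Rpsa and Rplp0 to Rplp2 and without the S6 kinases and pseudogenes. Of 55401 gene identifiers, 86 met the symbol rule, and 83 were kept, 49 of the large and 34 of the small subunit, because their counts summed to at least 40 over 8 libraries. That sum is the one measured value the members were selected on, and it does not use the groups. Just inside it lay Rpl21 with 500 and Rpl29 with 664 counts, and outside it Rpl3l with 21, Rpl39l with 4 and Rpl10l with 0 counts. All 83 passed the expression filter and were tested.

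Poly(A) RNA was sequenced from the livers of NOD Scid Gamma (NSG) mice, an immunodeficient strain that accepts human tumours. All animals carried a subcutaneous xenograft of a human colorectal cancer line, either Colo201, described as high in FGF19 (4 libraries), or HCT116, described as low in FGF19 (4 libraries). By sex label, 4 libraries were male (2L and 2R of Colo201, 1L and 1R of HCT116) and 4 female (4L and 4R of Colo201, 3L and 3R of HCT116). No tumour-free host was among the samples, the ages of the mice were not given, and each arm rests on 1 tumour line, so FGF19 and any other property of the lines cannot be told apart. The labels do not say that L and R of a number are separate animals, so the p-values weigh differences against a spread that may be partly technical.

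The libraries held 61347603 to 65457482 counts. Levels are given as CPM, counts relative to the library total scaled by TMM (trimmed mean of M-values), for comparing libraries within a gene, and as the authors' FPKM, which is per length, for comparing genes. Hepatocyte markers were abundant in all libraries, and lymphocyte markers summed to at most 0.1 CPM. Colo201 4R had the lowest Kupffer cell sum (234.6 CPM, against 389.5 to 637.3 in the others) and the highest cholangiocyte sum (67.6 against 28.7 to 39.5). Sex-linked genes went against the sex labels in all 8 libraries: Xist was at 253 to 366 CPM under the male label and at most 0.805 under the female label, and Ddx3y at 0 and at 37.6 to 63.5 CPM. The libraries are therefore called labelled male and labelled female.

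Ribosomes are built in the nucleolus from ribosomal RNA and about equal numbers of each ribosomal protein, so the mRNAs of these proteins are usually kept at related levels. Most of them begin with a run of pyrimidines, the 5′ terminal oligopyrimidine (TOP) motif, through which mTORC1 and LARP1 control mainly their translation and less their abundance. In the liver, FGF19 acts through FGFR4 and beta-Klotho, and signalling through ERK and RSK to ribosomal protein S6 is one route by which it is known to raise protein synthesis. S6 phosphorylation and TOP translation are not read by mRNA counts.

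In the comparison of tumour lines, no ribosomal protein mRNA passed the test: 0 of 49 large-subunit and 0 of 34 small-subunit genes were called, where 4.78% of all 17669 tested genes were (edgeR quasi-likelihood test, Benjamini-Hochberg adjusted p under 0.05). The estimates were small and mostly on the Colo201 side. The median log2 fold change, Colo201 over HCT116, was 0.096 for the large subunit (37 of 49 above 0) and 0.070 for the small subunit (27 of 34 above 0), against 0.0021 for all genes tested, of which 50.1% were above 0. At an unadjusted p under 0.05, 5 large-subunit and 4 small-subunit genes were higher and 0 of either were lower, where 11.0% of all genes were higher and 10.7% lower. The share of members, 9 of 83, lies near the background for higher genes. Rpl38 and Rps19bp1 were the members with every Colo201 library above every HCT116 library, where 6.27% of all genes showed this and 6.04% the reverse, which 0 members showed. For 72 of the 83 genes the 95% interval of the difference lay within 1.5-fold in either direction, so that for these a larger difference between lines is outside the interval, while smaller ones are not.

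**Figure D1:**
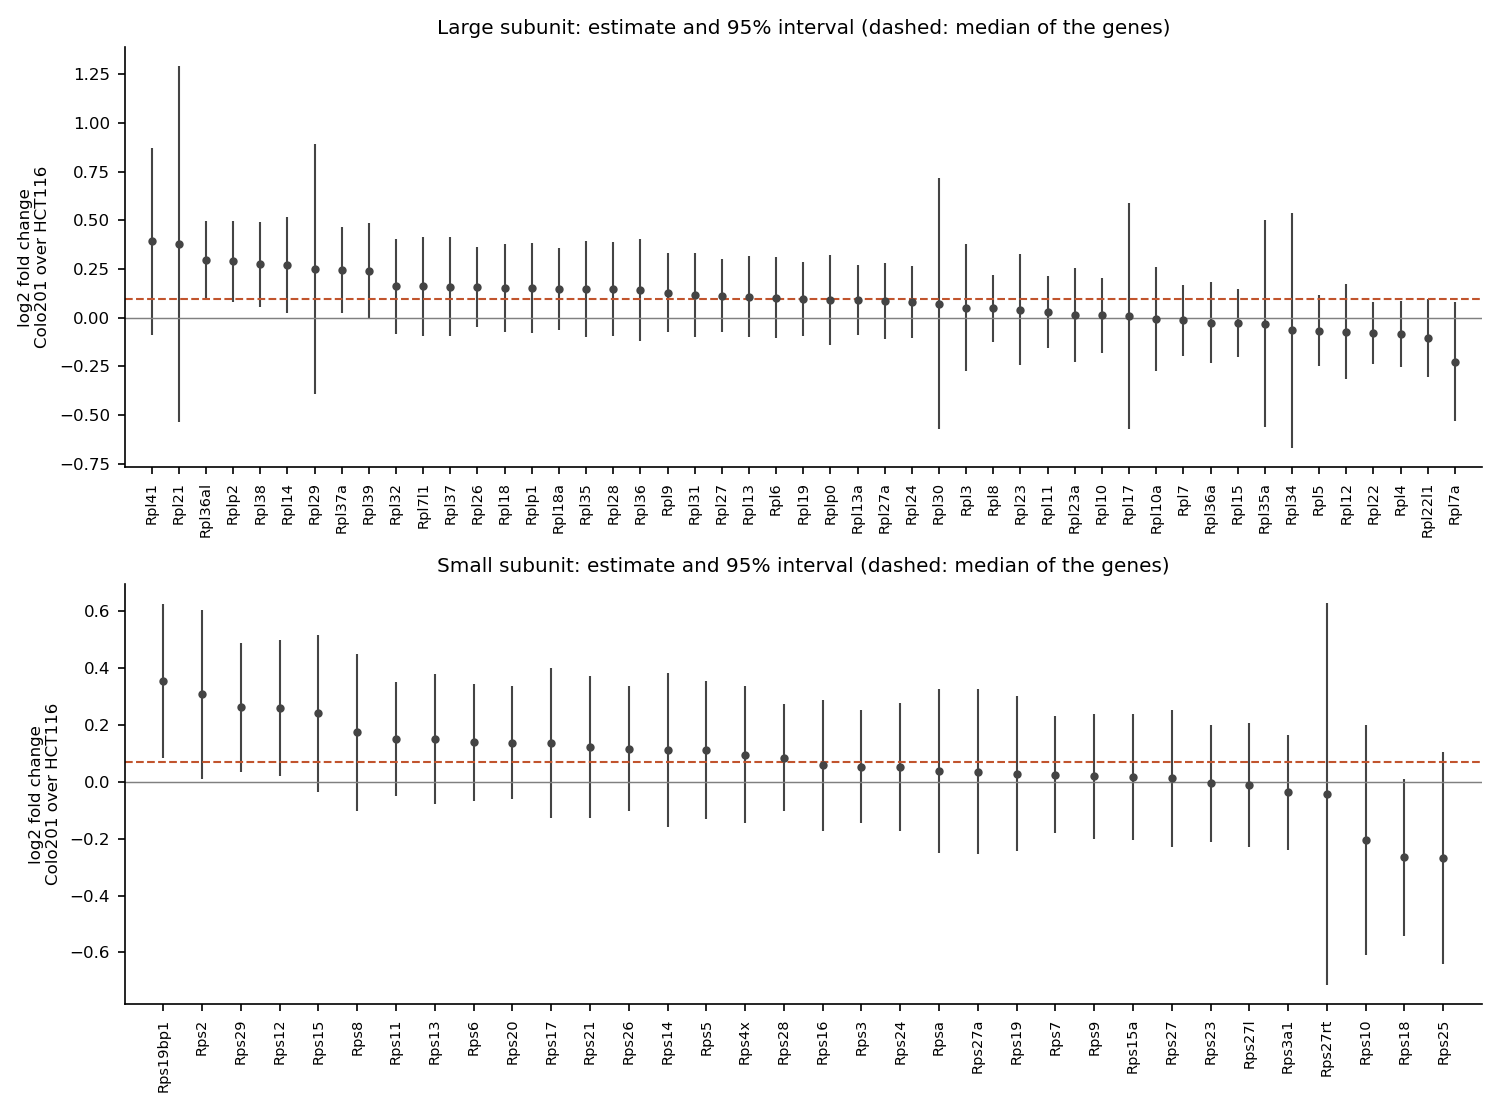
Log2 fold change in liver mRNA, Colo201 over HCT116 hosts, for the 49 large-subunit (top) and 34 small-subunit genes (bottom), ordered by estimate; points are edgeR estimates, bars 95% intervals and the dashed line the median of the genes. Most points lie above 0, 9 intervals exclude 0 before adjustment, and the 5 widest belong to Rpl21, Rps27rt, Rpl30, Rpl29 and Rpl34.

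The mRNAs of the P-stalk proteins, which recruit the translation GTPases to the large subunit, differed widely in the authors' FPKM. Rplp1 had the highest FPKM of all, 444 ± 45.8 (SD, n = 8), Rplp0 reached 182 FPKM and Rplp2 54.5 FPKM, below the large-subunit median of 70.8 FPKM. Their mean CPM lay closer together, at 243, 330 and 124, and the lengths behind the FPKM were not checked. Rplp2 was at 138, 140, 144 and 123 CPM in the Colo201 livers (2L, 2R, 4L, 4R) and at 113, 107, 103 and 123 CPM in the HCT116 livers (1L, 1R, 3L, 3R). The groups overlapped, since HCT116 3R lay marginally above Colo201 4R, and the log2 fold change of 0.29 ± 0.091 (SE) had an adjusted p of 0.111 in edgeR. Rplp1 and Rplp0 had log2 fold changes of 0.15 and 0.091, with edgeR adjusted p-values of 0.433 and 0.659.

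Among the other large-subunit proteins, Rpl36al, a paralog of Rpl36a, had the smallest p of all 83 genes. Its levels were 124, 111, 153 and 147 CPM in the Colo201 livers (2L, 2R, 4L, 4R) and 89.4, 97.7, 114 and 137 CPM in the HCT116 livers (1L, 1R, 3L, 3R). Within each sex label both Colo201 libraries were above both HCT116 libraries, but the lines overlapped over both labels. The log2 fold change was 0.29 ± 0.088 (SE), with a 95% interval of 0.094 to 0.49 and an edgeR adjusted p of 0.0979. DESeq2 called it, with an adjusted p of 0.0386, as the one large-subunit member among 1993 genes (13.4%) called by that tool. Rpl38, a surface protein known for its part in translating Hox mRNAs, was at 52.6 to 59.2 CPM in Colo201 and 39.8 to 51.9 CPM in HCT116 hosts, without overlap, with a log2 fold change of 0.27 ± 0.096 (SE) and an edgeR adjusted p of 0.145.

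Rpl41, a very short basic peptide, had the largest estimate of the large subunit, 0.39 ± 0.21 (SE), with an edgeR adjusted p of 0.326. It rested on Colo201 2R, at 249 CPM, where the other Colo201 livers were at 119 to 164 and the HCT116 livers at 113 to 148 CPM. Rpl7a had the lowest estimate, -0.23 ± 0.13 (SE), with an edgeR adjusted p of 0.372; 77.3% of the counts of Rpl7a and its near-identical copies lay in the copies, and with these added its estimate was -0.051. Rpl4, which lines the exit tunnel and was the most abundant member by CPM (473 CPM on average), had a log2 fold change of -0.085 and an interval of -0.26 to 0.085. Rpl5 and Rpl11, which bind 5S rRNA and, when free, the p53 regulator Mdm2, had log2 fold changes of -0.067 and 0.029. Rpl8 varied least of all members, by 1.13-fold between its highest and lowest library.

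In the small subunit, Rps2 was at 412, 372, 448 and 333 CPM in the Colo201 livers (2L, 2R, 4L, 4R) and at 351, 305, 259.5 and 352 CPM in the HCT116 livers (1L, 1R, 3L, 3R). Its lines overlapped through Colo201 4R, and the log2 fold change of 0.31 ± 0.13 (SE) had an edgeR adjusted p of 0.217. Rps29, a zinc-binding protein of the small-subunit head, had a log2 fold change of 0.26 ± 0.099 (SE) and an edgeR adjusted p of 0.173. Rps6, the substrate of the S6 and RSK kinases, was at 284, 328, 361 and 331 CPM in Colo201 and 275, 273, 287 and 351 CPM in HCT116 livers, in the same library order. All but HCT116 3R of the HCT116 libraries were at or below 287 CPM; the log2 fold change was 0.14, with an interval of -0.068 to 0.34 and an edgeR adjusted p of 0.422. At the lower end stood Rps25 (-0.27 ± 0.16, SE), Rps18 (-0.27 ± 0.12) and Rps10 (-0.21 ± 0.18), with edgeR adjusted p-values of 0.388, 0.246 and 0.553.

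2 members carry a ribosomal symbol without being core subunit proteins. Rps19bp1, a nucleolar protein that binds Rps19, was at 14.6, 17.2, 17.6 and 15.8 CPM in Colo201 and 10.1, 13.3, 13.8 and 13.9 CPM in HCT116 livers, and its log2 fold change of 0.35 ± 0.12 (SE), the largest of the small-subunit group, had an edgeR adjusted p of 0.129. Rpl7l1, related to Rpl7 and found in nucleolar precursors of the large subunit, had 0.16 ± 0.11 (SE), where Rpl7 had -0.015 ± 0.08. The remaining pairs of paralogs were Rpl22l1 (-0.10) and Rpl22 (-0.080), Rpl36al (0.29) and Rpl36a (-0.026), and Rps27l (-0.013), Rps27rt (-0.044) and Rps27 (0.011), all log2 fold changes between lines. Per length, Rps27l had 120 FPKM against 80.2 for Rps27 and 37.4 for Rps27rt, and Rpl36al 81.9 against 27.6 for Rpl36a. Fau, whose product carries Rps30 fused to a ubiquitin-like sequence, falls outside the symbol rule; its log2 fold change was 0.12, with an edgeR adjusted p of 0.512.

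The levels of the mRNAs varied together from library to library. Summed over the 49 large-subunit genes, expression was 7083, 7863, 7778 and 7065 CPM in the Colo201 livers (2L, 2R, 4L, 4R) and 6841, 6708, 6741 and 7898 CPM in the HCT116 livers (1L, 1R, 3L, 3R). The small subunit gave 5202, 5773, 6070 and 5212 CPM in the same Colo201 livers and 5073, 4847, 4964 and 6078 CPM in the HCT116 livers. HCT116 3R, Colo201 2R and Colo201 4L were the 3 highest for both subunits, and both lines overlapped. The means of the lines were 7447 ± 433 and 7047 ± 570 CPM (SD, n = 4) for the large subunit and 5564 ± 430 and 5241 ± 566 CPM for the small subunit, a difference below the SD within a line.

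The shift ran through most members. In HCT116 3R, 44 of 49 large-subunit and 32 of 34 small-subunit genes were above their own mean over the 8 libraries; in Colo201 4L 42 and 32 were, and in Colo201 2R 40 and 31. In the other HCT116 libraries only 6 to 10 large-subunit and 5 to 7 small-subunit genes were above their mean, and in Colo201 2L and 4R 18 and 22 large-subunit and 11 small-subunit genes in each. HCT116 3R was the highest HCT116 library for 71 of the 83 genes. It was also the highest HCT116 library for other gene sums. Mitochondrial ribosomal protein genes reached 2490 CPM there, against 2098 to 2164 in the other HCT116 livers. Subunits of oxidative phosphorylation reached 10761 against 9295.3 to 9416.5, and ribosome biogenesis factors 1262.5 against 1172 to 1189 CPM. In Colo201 2R the first of these sums was the lowest of its line, at 2251 CPM. The share of all genes above their own mean is not given. As a share of all counts, without TMM scaling, the members took 1.40, 1.37 and 1.36% in Colo201 2R, Colo201 4L and HCT116 3R and 1.16 to 1.23% in the other 5. The 2 subunits kept close proportion, the ratio of large to small summed CPM being 1.34 ± 0.039 in Colo201 and 1.35 ± 0.035 in HCT116 hosts (SD, n = 4). These 3 libraries share neither line nor sex label nor side, and what sets them apart was not tested.

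**Figure D2:**
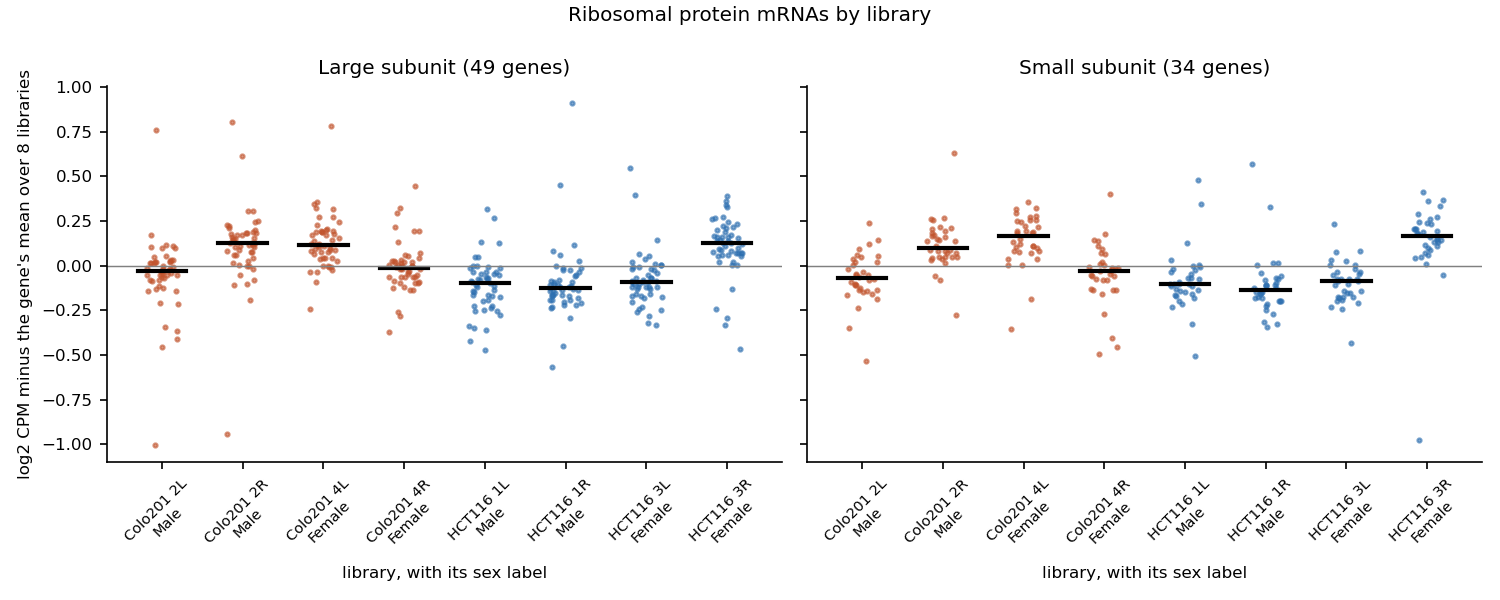
Log2 CPM of each gene minus its own mean over the 8 libraries, for the large subunit (left) and the small subunit (right); each point is a gene, black bars are medians, orange marks Colo201 and blue HCT116 hosts. The medians of Colo201 2R, Colo201 4L and HCT116 3R lie above 0 and those of HCT116 1L, 1R and 3L below it in both panels.

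Because HCT116 3R stands apart, the comparison of lines was also run without it. The medians became 0.16 for the large and 0.14 for the small subunit, 18 of 83 members had an unadjusted p under 0.05, all higher in Colo201, where 10.1% of all genes were higher at that level, and 0 members were called. HCT116 3R was the highest HCT116 library for 71 members, so leaving it out raises most estimates by construction. Members that vary together are also not separate evidence. Without Colo201 2R the medians were 0.061 and 0.021, with 3 members higher and 3 lower at an unadjusted p under 0.05 (9.55% and 9.13% of all genes) and 0 called. The medians were 0.15 and 0.13 without Colo201 4R, and the small-subunit median was 0.11 without Colo201 2L and 0.044 without HCT116 1R. The size of the shift between lines thus moved more than 1.5-fold with single libraries of either line, while its sign did not change.

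Within the libraries labelled male, 0 of 83 members were called between lines (0.232% of all genes) and the medians were 0.16 and 0.13 for the large and small subunit. Within those labelled female, 0 were called (0.492% of all genes) and the medians were 0.040 and 0.037. The female medians changed sign without Colo201 4L (-0.047 and -0.073) or HCT116 3L (-0.068 and -0.10) and rose to 0.084 and 0.11 without Colo201 4R and to 0.18 and 0.17 without HCT116 3R. The male medians were 0.077 and 0.047 without Colo201 2R and 0.25 and 0.21 without Colo201 2L. The difference between these effects, female minus male, was below 0 for 70 of 83 genes, with medians of -0.13 and -0.11, and 0 members passed the interaction test (0.0283% of all genes). Without HCT116 3R the medians of that difference were -0.020 and 0.041, and without Colo201 2R -0.063 and -0.044. Rps25, a head protein needed by some viral internal ribosome entry sites, had the smallest interaction p. It was at 85.9 and 77.9 CPM in Colo201 4L and 4R and 116 and 141 CPM in HCT116 3L and 3R, but at 114 and 131 CPM in Colo201 2L and 2R and 119.9 and 107 CPM in HCT116 1L and 1R. The line difference was -0.65 ± 0.15 (SE) among libraries labelled female and 0.12 ± 0.15 among those labelled male; the edgeR adjusted p was 0.123 in the first, and the interaction had an unadjusted p of 0.0064 and an adjusted p of 1 in edgeR. DESeq2 called Rps25 among libraries labelled female, with an adjusted p of 0.00633, where it called 4.23% of all genes. Rpl3 and Rpl10a, next by interaction p, had differences of 0.61 ± 0.21 and -0.41 ± 0.20 (SE). Of the counts of Rpl3 and its near-identical copies, 50.2% lay in the copies. With copies added, Rpl10a stayed at -0.41. In that fit 0 of 49 large-subunit genes had an unadjusted interaction p under 0.05 in edgeR, where 376 of 17345 genes were higher and 339 lower.

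Between the sex labels, 2 of 83 members were called, both lower in libraries labelled male, where 4.02% of all genes were called. Rps27l, a p53-induced paralog of Rps27, was at 94.6, 87.7, 90.4 and 92.5 CPM in the livers labelled male (Colo201 2L, 2R, HCT116 1L, 1R), against 126, 120.1, 108 and 141 CPM under the female label (Colo201 4L, 4R, HCT116 3L, 3R). The labels did not overlap, and the log2 fold change, male over female, was -0.44 ± 0.096 (SE), with an edgeR adjusted p of 0.0418. Rpl36al, with the values given above, was at 106 ± 15.4 CPM in livers labelled male, against 138 ± 17.0 CPM under the female label (SD, n = 4), with some overlap, a log2 fold change of -0.39 ± 0.088 (SE) and an edgeR adjusted p of 0.0484. Rps27a, which carries ubiquitin fused to a small-subunit protein, was at 92.98 to 127 CPM in livers labelled male, and at 137 to 178 CPM under the female label, without overlap, but its change of -0.53 ± 0.13 (SE) had an edgeR adjusted p of 0.058; with its near-identical copies added it was -0.28, with an edgeR adjusted p of 0.164. The medians over the large and small subunit were -0.071 and -0.084, and -0.0088 and -0.0020 without HCT116 3R. Both calls are close to the threshold: without any 1 library, Rpl36al was called in none of the 8 fits and Rps27l in 1, that without HCT116 3L.

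The Kupffer cell, endothelial and hepatocyte marker sums also separated the sex labels. The stellate, cholangiocyte, lymphocyte, neutrophil, erythroid, pancreatic and adipocyte sums overlapped. In the erythroid and pancreatic lists 1 gene each was called, lower in livers labelled male. Of all genes tested, 4.02% were called between the labels. The 12 Kupffer cell and macrophage markers summed to 532.0 to 637.3 CPM in livers labelled male, against 234.6 to 454.8 CPM under the female label, with 2 of 12 called higher in the former. The 10 endothelial markers summed to 368.4 to 415.2 and 236.3 to 310.1 CPM, with 5 of 10 called higher in livers labelled male. The 10 hepatocyte markers did not overlap either, and 2 of 10 were called, both higher in livers labelled male. In none of these 3 lists was any marker at 0 in all libraries. Their part in the values of Rps27l, Rpl36al and Rps27a was not tested, and in bulk liver fewer cells of a type and less RNA per cell cannot be told apart.

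**Figure D3:**
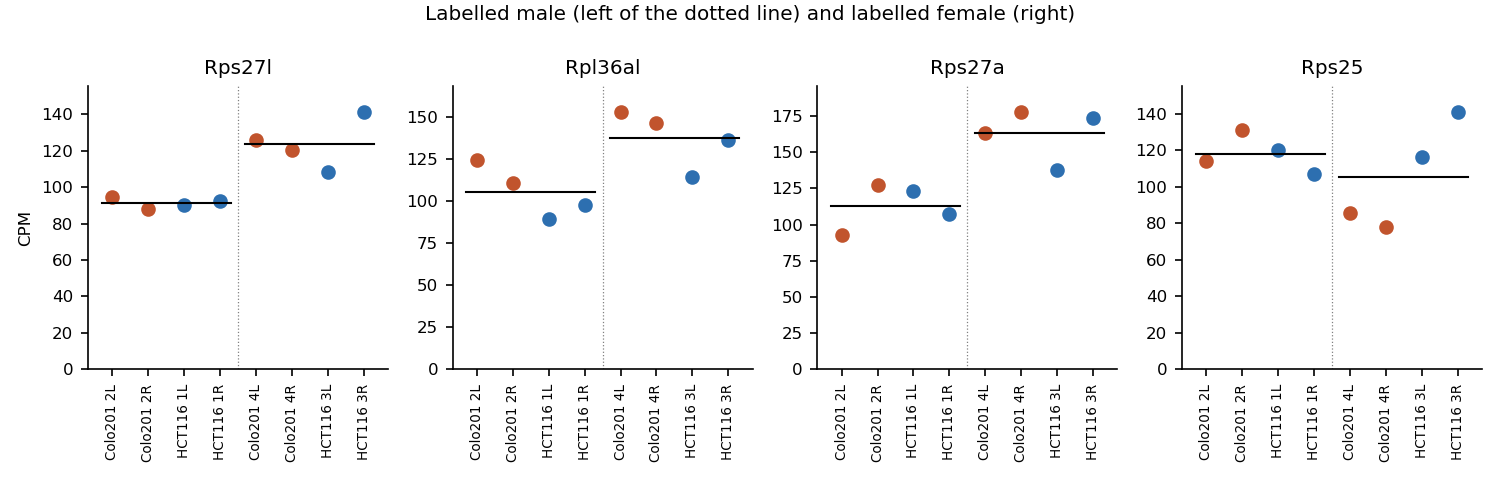
CPM of Rps27l, Rpl36al, Rps27a and Rps25 in each liver, labelled male to the left and labelled female to the right of the dotted line; orange points are Colo201 and blue points HCT116 hosts, and black lines are means of 4 libraries. Rps27l and Rps27a do not overlap between the labels, and Rps25 is at 77.9 to 85.9 CPM in the Colo201 livers labelled female.

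By the authors' FPKM the members spanned a wide range, although their proteins are used in about equal numbers. The lengths behind these values were not checked, and the order by CPM differs. For example, Rpl12 averaged 134 CPM and 33.9 FPKM, and Rpl14 123 CPM and 67.6 FPKM. The mean over 8 libraries had a median of 70.8 FPKM in the large and 81.0 FPKM in the small subunit. The highest were Rplp1 (444 ± 45.8 FPKM, SD, n = 8), Rpl36 (378 ± 44.2), Rps15 (331 ± 43.7), Rps3a1 (295 ± 23.8) and Rpl4 (215 ± 15.7). Neighbours in this order, such as Rplp1 and Rpl36 or Rps15 and Rps3a1, differed by less than their combined spread. The lowest were Rpl21 (0.26 ± 0.090), Rpl29 (1.05 ± 0.27), Rpl34 (1.91), Rpl35a (3.93), Rpl30 (4.91), Rps18 (9.52) and Rps19bp1 (12.2 FPKM). Of these, Rps19bp1 is the one without an annotated near-identical copy.

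**Figure D4:**
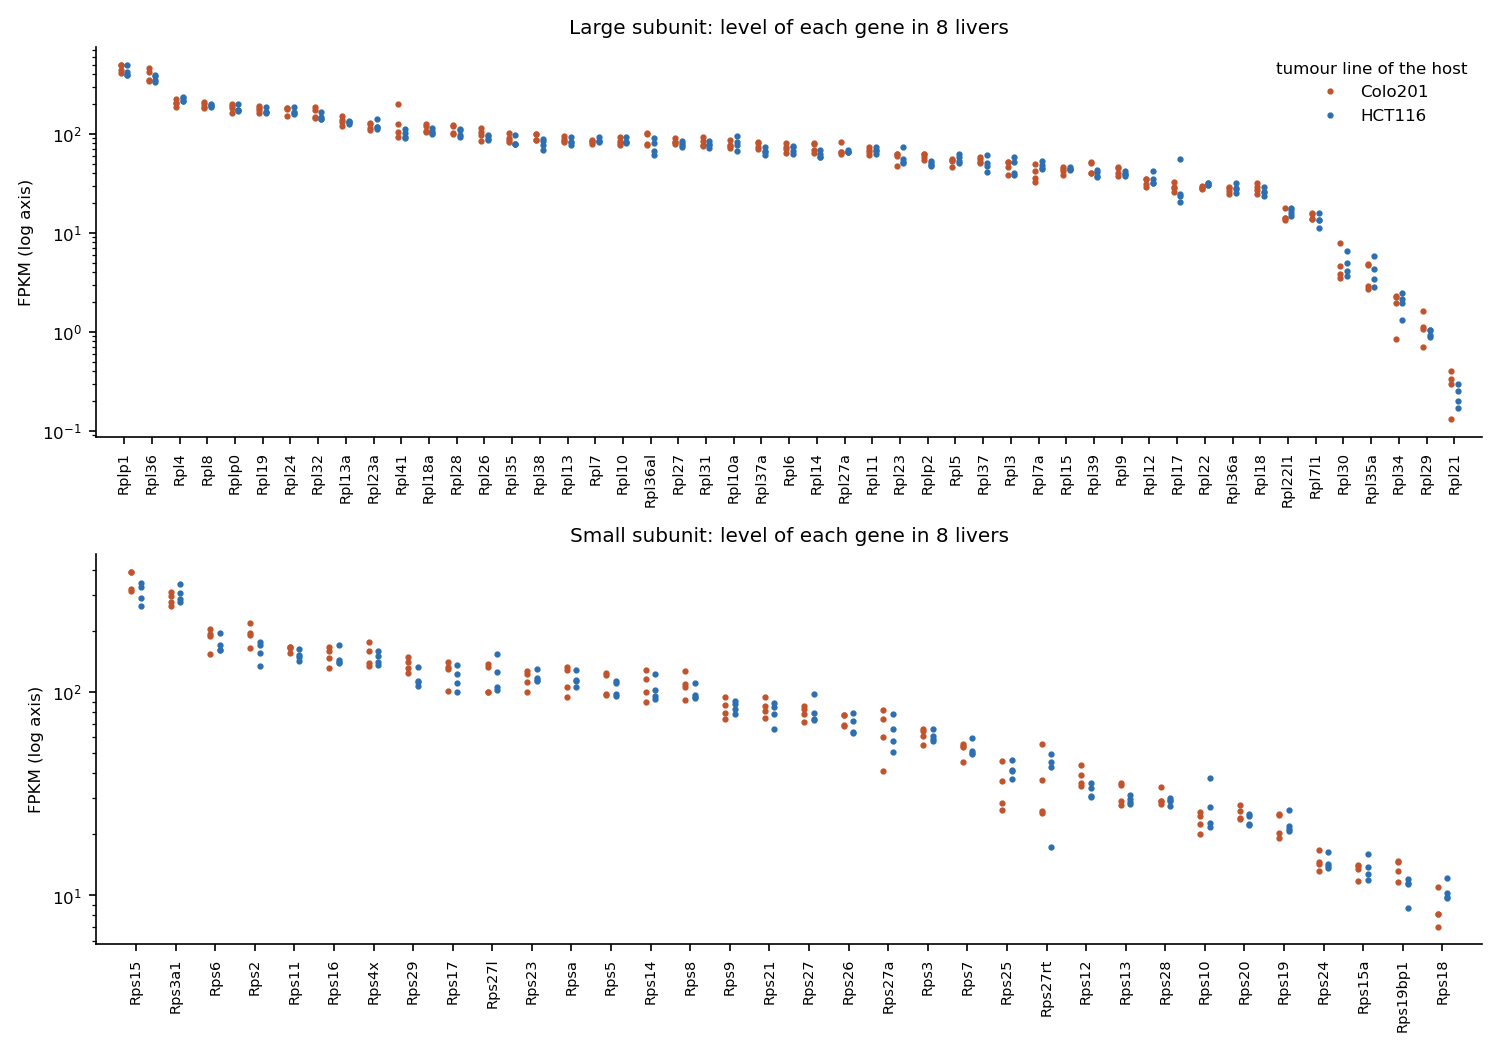
FPKM (log axis) of each gene in each of the 8 livers, for the large subunit (top) and small subunit (bottom), ordered by mean; orange points are Colo201 and blue points HCT116 hosts. Both lines are interleaved in most genes, and Rpl21 and Rpl29 lie near 1 FPKM or lower.

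Ribosomal protein mRNAs are often copied back into the genome as intronless pseudogenes, and reads cannot always be assigned between a gene and a copy. Of all annotated transcripts, 526 copies with counts matched 78 members at 95% identity or more over at least 80% of the copy, 515 of them processed pseudogenes and 10 annotated as protein-coding. They held 3201 CPM on average against 12649 CPM in the members, or 20.2% of the total of both. Rpl21 had 1.001 CPM while its 49 copies had 153 CPM, so that 99.3% of the family's counts were assigned to copies. The share was 99.2% for Rpl29, 95.5% for Rpl34, 90.1% for Rps18, 88.9% for Rpl35a, 85.1% for Rpl30 and 80.6% for Rpl17. These 7 genes are uncertain as measured. In all, 14 members had a share over 40%, among them Rpl7a (77.3%), Rpl3 (50.2%) and Rps10 (46.9%), and their values also need caution.

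How alike gene and copy can be is shown by coding stretches of 90 bases from 3 of these genes and their most abundant copies (GENCODE vM21 transcripts, GRCm38), with the one base that differs in capitals.
Rps18, chr17:33952502-33952591, minus strand: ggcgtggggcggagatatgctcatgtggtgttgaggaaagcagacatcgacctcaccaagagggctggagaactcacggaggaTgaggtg
Gm10260, chr13:97760397-97760486, minus strand: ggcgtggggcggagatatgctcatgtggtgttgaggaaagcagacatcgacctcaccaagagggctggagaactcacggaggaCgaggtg
Rpl29, chr9:106431177-106431266, plus strand: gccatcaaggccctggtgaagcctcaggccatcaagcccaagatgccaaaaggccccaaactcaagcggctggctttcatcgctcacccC
Gm13841, chr5:115801860-115801949, minus strand: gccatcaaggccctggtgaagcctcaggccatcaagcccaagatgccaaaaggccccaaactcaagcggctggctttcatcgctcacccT
Rpl34, chr3:130729061-130729150, minus strand: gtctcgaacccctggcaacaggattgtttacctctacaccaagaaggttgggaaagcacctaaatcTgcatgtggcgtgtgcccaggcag
Rpl34-ps1, chr6:71124675-71124764, plus strand: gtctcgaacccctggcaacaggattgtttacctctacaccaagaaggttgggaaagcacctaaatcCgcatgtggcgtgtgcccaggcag

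Gm10260 is annotated as a protein-coding gene of 1 exon and held 148 CPM on average, where Rps18 itself held 25.6 CPM. Its levels were 175, 201, 63.5 and 182 CPM in the Colo201 livers (2L, 2R, 4L, 4R) and 192, 181, 189 and 0 CPM in the HCT116 livers (1L, 1R, 3L, 3R); a count of 0 in HCT116 3R allows up to 0.0501 CPM (3 counts; counting error only). Rps18 was at 23.0, 28.9, 22.2 and 19.1 CPM and at 32.2, 25.5, 26.6 and 27.1 CPM in the same order, and the copy Gm11361 at 49.0 to 72.6 CPM, so no other member of the family filled the gap in HCT116 3R. Rps18 with its copies summed to 135 CPM in HCT116 3R and 170 CPM in Colo201 4L, against 272 to 324 CPM in the other 6 livers.

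**Figure D5:**
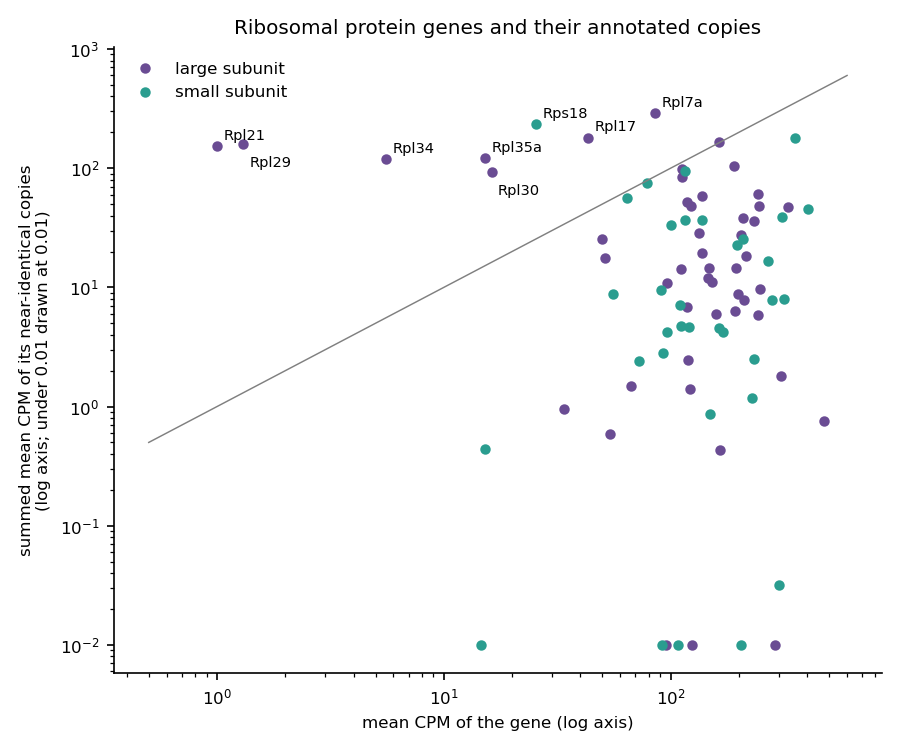
Mean CPM over 8 livers of each ribosomal protein gene against the summed mean CPM of its near-identical annotated copies, both on log axes with the line of equality; sums under 0.01 are drawn at 0.01. Most genes lie below the line, and Rpl21, Rpl29, Rpl34, Rpl35a, Rpl30, Rps18, Rpl17 and Rpl7a lie well above it.

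Adding each copy's counts to its member brought the low genes into the range of the others. Rpl21 rose from 1.001 to 154 CPM, Rpl29 from 1.31 to 159.9 CPM and Rpl34 from 5.57 to 124 CPM. The log2 fold change between lines of Rpl21 went from 0.38 ± 0.40 to 0.098 ± 0.081 (SE). The medians were 0.098 and 0.059, and 0 members were called, where that fit called 860 of 17345 genes. The number of members that varied less than 2-fold between their highest and lowest library was 76 of 83 as deposited and 80 of 83 with copies. Among the 44 members with under 10% of their counts in copies, the median between lines was 0.11, with 34 above 0, and among the other 39 it was 0.057, with 30 above 0. Of the 324 copies that could be tested, 0 were called between lines in edgeR, with 7 higher and 3 lower at an unadjusted p under 0.05. Of all genes tested, 4.78% were called, and 11.0% were higher and 10.7% lower at that unadjusted level. Of all 83 members, 23 overlap another annotated gene with counts, on the same strand in 3 cases, where that gene had at most 0.047 CPM. Whether counting used the strand is not given, so reads of the opposite-strand genes, such as Vps52 over Rps18 (29.3 CPM), may be shared.

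The start sites were read for the TOP motif, which marks this class of mRNA. RefSeq promoters of GRCm38.p6 were on hand for 63 of the 83 members, 37 of the large and 26 of the small subunit. Windows from 40 bases before to 20 bases after the annotated start are shown for members named above, with a run of at least 5 pyrimidines that begins with C within 10 bases of the start in capitals.
Rps6, chr4:86857348-86857407, minus strand: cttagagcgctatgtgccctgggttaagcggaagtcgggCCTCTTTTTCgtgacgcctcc
Rplp2, chr7:141447611-141447670, plus strand: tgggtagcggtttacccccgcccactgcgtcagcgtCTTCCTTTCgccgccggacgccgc
Rpl38, chr11:114668540-114668599, plus strand: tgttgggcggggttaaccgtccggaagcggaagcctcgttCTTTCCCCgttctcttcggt
Rps27, chr3:90213629-90213688, minus strand: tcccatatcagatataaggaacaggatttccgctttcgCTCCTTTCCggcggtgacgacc
Rps27rt, chr9:114982720-114982779, minus strand: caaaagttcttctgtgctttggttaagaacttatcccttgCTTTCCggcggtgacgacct
Rps27l, chr9:66946046-66946105, plus strand: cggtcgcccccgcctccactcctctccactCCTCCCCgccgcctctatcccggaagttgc
Rpl36al, chr12:69184048-69184107, minus strand: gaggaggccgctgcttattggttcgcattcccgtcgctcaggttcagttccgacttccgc
Rps19bp1, chr15:80264287-80264346, minus strand: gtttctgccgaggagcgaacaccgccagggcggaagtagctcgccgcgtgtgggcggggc

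Rps6, Rplp2, Rpl38 and Rps27 carry such a run across or next to the start. Rps27rt shares the start of its transcript with Rps27 while the bases before it differ. Rps27l carries its run before the start, and in Rpl36al, the member with the smallest p between lines, and Rps19bp1 the window holds none. In all, 37 of the 63 members (58.7%) had such a run in at least 1 of their promoters, 21 of 37 in the large and 16 of 26 in the small subunit, against 37.2% of 11664 other tested genes and 30.7% of all 32851 promoters in the table. The string CCGGAAG, the core of Ets-factor motifs, was found on either strand in the 300 bases (250 before and 50 after the start) of 25 of 63 members (39.7%), 18.1% of other tested genes and 8.86% of all promoters. AAGATGG, a part of the YY1 motif, was found in 10 members (15.9%), 7.89% and 6.34%. The E box CACGTG, which Myc binds, was found in 6 members (9.52%), 11.2% and 7.15%, and the GC box GGGCGG in 40 (63.5%), 63.7% and 35.7%. The TATA box string TATATA was found in 7 members (11.1%), 3.34% and 5.67%. Members and other tested genes count once if any of their promoters matches, while the share of all promoters counts single entries. CCGGAAG and AAGATGG share the letters AAG and could overlap there, and a match is a description of these letters only.

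Some genes that act around the ribosome passed the test between lines, where 2.48% of all genes were called higher and 2.30% lower. With the libraries of a title number summed, 3 of 17669 genes were called, all lower, and 0 of them were among the genes named here. Every call in the lists that follow was thus lost in that fit. Summing leaves a single value per line and sex label, and the main fit called 845 genes. The loss was thus not limited to the genes named here. Whether it came from fewer values or from L and R not being separate animals was not tested. Of 45 ribosome biogenesis factors, 4 fell and 0 rose in Colo201 hosts: Taf1d (-0.73 ± 0.095, SE) and Polr1a (-0.43 ± 0.096), of the RNA polymerase I machinery, the nucleolar helicase Ddx21 (-0.36 ± 0.082) and the export adaptor of the large subunit Nmd3 (-0.40 ± 0.094). Their edgeR adjusted p-values were 0.0087, 0.0431, 0.0459 and 0.0484, and the list's median was -0.084, with 19 of 45 above 0. At an unadjusted p under 0.05, 5 were higher and 9 lower. Taf1d was at 9.09, 10.1, 7.06 and 7.60 CPM in Colo201 and 15.1, 15.3, 12.8 and 12.7 CPM in HCT116 livers. Every Colo201 liver was below every HCT116 liver in each of these 4 genes.

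Of 9 host RNAs of small nucleolar RNAs, which are also TOP transcripts, 1 fell (Snhg5, -0.67 ± 0.15, SE, edgeR adjusted p = 0.0408), 0 rose, and all 9 estimates were below 0, with a median of -0.45. Their sum did not overlap between lines, at 73.2 to 92.6 CPM in Colo201 and 95.8 to 109.5 CPM in HCT116 hosts. Of 21 translation factors with TOP mRNAs, 2 fell and 0 rose: Eif4a2, an RNA helicase of initiation (-0.67 ± 0.11, SE), and Eif3a, the scaffold of eIF3 (-0.49 ± 0.092), with edgeR adjusted p-values of 0.0195 and 0.0273. The list's median was -0.075.

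Of 27 genes of mTORC1, RSK and S6 kinase control, 1 rose and 1 fell. Rps6ka1, which encodes the S6-phosphorylating kinase RSK1, was at 33.0 ± 3.90 CPM in Colo201 and 22.7 ± 1.21 CPM in HCT116 hosts (SD, n = 4), without overlap (0.54 ± 0.11, SE, edgeR adjusted p = 0.0313). Rps6kb1, which encodes S6 kinase 1, was at 22.8 ± 2.90 and 31.5 ± 5.46 CPM, with overlap (-0.46 ± 0.10, SE, edgeR adjusted p = 0.0413). Of 11 genes of Myc and its partners, Mxd4 rose (0.41) and Mga fell (-0.46), both antagonists of Myc at E boxes, with edgeR adjusted p-values of 0.0459 and 0.0311.

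Of 78 mitochondrial ribosomal protein genes, 3 rose and 0 fell, with a median of 0.13 and 57 above 0: Mrps6 (0.71 ± 0.12, SE), Mrps15 (0.41 ± 0.084) and Mrps16 (0.41 ± 0.091), with edgeR adjusted p-values of 0.0200, 0.0351 and 0.0438. Of 76 tested subunits of oxidative phosphorylation, Ndufb7 and Ndufa4l2 rose and 0 fell, with a median of 0.074. Of all genes, 2.48% were called higher and 4.78% in either direction. At an unadjusted p under 0.05, 16 of the 78 were higher and 0 lower, and 9 of the 76 were higher and 3 lower. At that level 11.0% of all genes were higher and 10.7% lower. Of 112 tested pseudogenes with a ribosomal protein name, 0 were called in edgeR, with 1 higher and 2 lower at an unadjusted p under 0.05, and the median was 0.087. Among marker lists in the comparison of lines, hepatocyte genes had 3 of 10 called, all higher (Apoa1, Trf and Ahsg). The stellate list had 1 of 10 (Reln) and the pancreatic list 1 of 1 tested (Cela1) called, both higher. At an unadjusted p under 0.05, the hepatocyte list had 4 higher and 1 lower, with 6 of 10 estimates above 0. The stellate list had 3 higher and 1 lower at that level, with 8 of 10 above 0. The Kupffer, endothelial, cholangiocyte, neutrophil and erythroid lists had 0 called in edgeR. At an unadjusted p under 0.05, each of the first 3 had 0 higher and 1 lower, and the neutrophil list 0 of either. In the erythroid list 4 of 5 tested were higher and 0 lower at that level, with a median log2 fold change of 0.58. The part of these cell-type markers in the gene groups above was not tested.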

How the data were processed

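Poly(A) RNA of mouse liver was sequenced in 8 libraries from TruSeq stranded mRNA libraries, per the labels' protocols. HISAT2 and StringTie were used on GRCm38 (mm10), per the submitters' processing notes; their versions, the annotation and strand setting: not given in the sources used here. The deposited estimated counts were whole numbers, 29.1% of those above 0 being multiples of 4, and entered edgeR as they stand. The authors' deposited FPKM values, per length and depth, served for levels between genes only, and the lengths behind them were not checked. Of 55401 identifiers, 55141 matched a symbol in GENCODE vM21 (GRCm38).

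Counts were scaled by TMM, filtered by filterByExpr and tested over 17669 genes with edgeR 4.0.16 (glmQLFit, glmQLFTest; R 4.3.3), two-sided, with Benjamini-Hochberg adjustment. The comparison of lines had the sex label as covariate and that of sex labels the line; effects within a label and the interaction came from a fit with a mean per combination. Standard errors derive from the F statistic, and 95% intervals from the total degrees of freedom. Alternatives were other scalings and filters, DESeq2 1.42.0, limma voom 3.58.1, counts divided by 4, summed title numbers, no sex label covariate, each library left out, and, added after seeing the data, copies added to members. Copies were found by blastn (identity at least 95%, at least 80% aligned, at least 150 bases). The edgeR fit was tested on simulated data: the first run recovered fewer of the 4-fold changes than the pass mark set for it, and that mark was lowered after this was seen. Changes of 2-fold or less were mostly not called in those data. This need not hold for the members, whose median SE between lines was 0.10, against 0.20 for all genes tested. In the main fit, Ndufb7 (0.34 ± 0.079, SE) and Ddx21 (-0.36 ± 0.082) were called. Still, 0 calls does not show equal levels, and intervals are given. Named genes were, per subunit, the largest and smallest changes between lines and the highest and lowest FPKM, all paralog pairs, the smallest p in the interaction and sex label, and the called genes of other lists; Rplp0, Rplp2, Rpl5, Rpl8, Rpl11, Rpl17, Rpl30, Rpl34, Rpl35a, Rpl38 and the named copies were chosen after their values were seen. The members and lists were chosen with earlier results of these data known. Correlations between members over libraries were planned and left out; counts of genes per library are given instead. Of the lists, Snhg4 and Ahsp matched no symbol. One gene of the lists is not reported here.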

Additional observations from a re-analysis of the deposited data

Results flagged for a closer look

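In 6 cases 1 library of 4 stood apart from the rest of its line by Dixon's criterion, among 62 groups of 4 examined; chance gives about 1 in 20. HCT116 3R was above the other HCT116 livers in 4 of them. Its large-subunit sum was 7898 CPM against 6708 to 6841, Rplp1 was at 279.9 CPM against 211 to 221, Rpl7 at 278 CPM against 239 to 243, and Rps27 at 115 CPM against 82.2 to 86.8. Rps19bp1 was low in HCT116 1L, at 10.1 CPM against 13.3 to 13.9. The ratio of large to small summed CPM was low in Colo201 4L, at 1.28 against 1.36 in the other Colo201 livers. No test was made of what sets these libraries apart.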

How the results depend on the processing

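No paired analysis was possible because the lines share no replicate number. Between lines, 0 small-subunit genes were called under all 21 alternatives, and 0 large-subunit genes under all but DESeq2, which called 1 (Rpl36al). DESeq2 also called 1 member (Rps25) among libraries labelled female; the interaction and the libraries labelled male gave 0 under every alternative run for them. For the sex label, the 2 calls became 0 to 1 when 1 library was left out, and were 2 to 3 under the other alternatives. The median between lines ranged from 0.061 to 0.16 for the large and 0.021 to 0.14 for the small subunit, all above 0 and within the spread between libraries of the main medians (0.101 and 0.126). Of 588 values of 28 named members under the alternatives, 552 kept their direction and side of the threshold, 1 newly passed it (Rpl36al, DESeq2) and 35 uncalled estimates near 0 changed sign. With libraries of a title number summed, 3 of 17669 genes were called, all lower in Colo201 hosts, and 0 members. That fit first had its own gene filter, which called 0 of 19704 genes (1787 higher and 1731 lower at an unadjusted p under 0.05), and was set to the main gene set after this was seen.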
